A study of Homo sapiens with 12 samples.

Results

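The activation screen measured how an ordered pair of protein domains, brought together to a reporter gene, changed the share of cells in the bound fraction. Its 4 libraries were those titled as the activation screen among the 12 libraries of the series, a bound and an unbound fraction in each of 2 replicates. The other libraries came from a repression screen and from a memory screen that the labels call unused, both in K562 cells with a reporter named pJT039, and served here to estimate the spread and for the comparisons with the repression screen. The library held 100 domains in each position, which allows 10000 ordered pairs. Of the 9983 pairs with reads in the series, 9962 had reads in the activation libraries. A pair entered the tests with at least 5 reads in a fraction and 50 reads in both fractions together in each replicate, and 9063 pairs did.

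The cells were K562, a human chronic myeloid leukaemia line, carrying a reporter named pDY032 in the labels. Each cell expressed a fusion of rTetR, a DNA-binding protein that attaches to its operator only when doxycycline is present, to a first and a second domain. Both replicates were infected with lentivirus separately, at a coverage of about 600 cells per library member, and selected for 7 days with blasticidin. Doxycycline at 1000 ng/mL was given on day 8 after infection and lasted 2 days. All groups share this line, selection and dose, and no library without doxycycline was used here. The sources used here do not say how cells were divided into bound and unbound, and bound was read as the fraction with an active reporter. The libraries count DNA of the domain pairs and hold no transcripts, so the cell type cannot be checked against marker genes.

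Activation domains are short protein segments that draw coactivators and the transcription machinery to a promoter, while repressor domains draw corepressors that deacetylate or methylate histones. Many KRAB domains of zinc-finger proteins act through the corepressor TRIM28, and HP1 proteins such as CBX1 bind methylated histone H3 and spread heterochromatin. Transcription factors carry several such segments at once, so a fusion of a pair of domains asks how their activities combine on a single promoter.

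Depth was uneven. The bound libraries held 55121999 and 32678125 reads, and the unbound libraries 34106267 in replicate 1 and 612999 in replicate 2. The median count per pair was 28 in the unbound library of replicate 2, against 666 to 1797 in the others. In that library 763 of the tested pairs (8.42%) had fewer than 5 reads and were set to a floor of 5 for the score, as were 31 pairs in the bound library of replicate 1. A score is the log2 of bound over unbound reads in a replicate, relative to pairs of 2 control domains, and a positive score means a larger bound share. The 21 controls were 11 tiles of the muscle protein dystrophin (DMD) and 10 random sequences.

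Next to control partners, 5 domains raised the bound share by at least 3 on the log2 scale and form the strong activating group here. MYBA, a transcription factor of the Myb family, was tested through its LMSTEN domain, which had 806751 bound and 50488 unbound reads in replicate 1 and 373070 and 750 in replicate 2, which gave scores of 4.26 and 4.17. This was an 18.1-fold higher ratio of bound to unbound reads than that of control domains (log2 4.18, SE 0.15, edgeR adjusted p = 3.7e-08). The nuclear receptor coactivator domain of NCOA2 scored 3.64 and 3.95, and the transactivation domain of the forkhead factor FOXO3 scored 3.66 and 3.57. Tile 22 of ENSG00000179833 scored 3.41 and 3.37, although the files name it a silencer tile. The KRAB domain of ZN473 (gene ZNF473) scored 3.24 and 3.15. All 5 stood above the highest control (log2 1.92) in both replicates, which largely follows from the cut at 3.

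A weaker activating group of 5 domains lay between 1 and 3. The WW domain of KIBRA, a Hippo pathway scaffold, scored 1.55 and 2.40, and the KRAB domain of ZN597 scored 1.44 and 1.87. CRTC2, a coactivator of CREB, scored 1.62 and 1.25 with its C-terminal TORC domain. ANM2, an arginine methyltransferase tested through its SH3 domain, scored 1.29 and 1.09, and the QLQ domain of SMCA2, an ATPase of the SWI/SNF remodelling complexes, scored 1.34 and 0.79. In both replicates these 5 domains were above 0, but a control, DMD tile 31, scored 2.12 and 1.78 and so lay among them. The tested log2 effects were 1.93 (SE 0.21) for KIBRA, 1.62 (SE 0.20) for ZN597, 1.40 (SE 0.11) for CRTC2, 1.16 (SE 0.13) for ANM2 and 1.03 (SE 0.14) for SMCA2. Just below 1 were the SH3 domain of the tyrosine kinase BTK (0.97) and APC16, a subunit of the anaphase-promoting complex (0.84).

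At the other end, 9 domains lowered the bound share by at least 1. The ubiquitin-like domain of SUMO3 had 34870 bound and 105273 unbound reads in replicate 1 and 22096 and 2279 in replicate 2, with scores of -1.33 and -1.51 (log2 -1.46, SE 0.16, edgeR adjusted p = 8.81e-05). The 3 KRAB variants had log2 effects of -1.45 (Q3KP31), -1.41 (P21506) and -1.23 (M0QYP0). The chromoshadow domain of CBX1 was at -1.27 and the chromodomain of MPP8, which binds methylated histone H3, at -1.20, a call that was lost without replicate 2 (-1.01). ID2, which binds basic helix-loop-helix factors and keeps them off DNA, was at -1.28, tile 13 of ENSG00000025156 at -1.09, and the bZIP domain of CREM, a CREB-family factor, at -1.03. Their scores ran from -1.54 to -0.87, so the fall was small beside the rise of the strong activating group, in which every score was above 3.

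Over the 79 domains that are not controls, edgeR called 20 higher (25.3%) and 34 lower (43%), or 68.4% in either direction. Calls at 1 or more in size were 10 higher (12.7%) and 9 lower (11.4%). Both coactivator domains and 3 of 5 in the transcription factor list rose, as did 2 of 5 WW domains, small modules that bind proline-rich peptides, and 2 of 4 SH3 domains, which bind such peptides too. In the silencing lists, 3 of 3 KRAB variants, 2 of 2 SUMO and E3 ligase proteins, 2 of 2 Polycomb domains and 2 of 3 HP1 and chromodomain proteins fell. These lists go by protein, and HERC2 was tested through its Cyt-b5 domain and CHD3 through DUF1087. The chromodomain of CDYL2, which is in none of these lists, fell too (-0.92). Of the 23 silencer tiles 15 fell and 1 rose. In the list of variant KRAB and NIZP1 domains, by contrast, 3 of 4 rose (ZN473, ZN597 and the KRAB domain of NIZP1 at 0.27) and 1 fell (NIZP1 C2HR at -0.31), or 2 and 2 with total counts. Scaling to total counts moved the single-domain effects by a median of -0.92 and gave 8 higher and 64 lower. Under it 0 of the SH3 domains and 1 of the WW domains stayed higher, while 2 and 3 of them were lower. Of the 20 domains called higher with control scaling, 9 turned below 0 and 6 of these were called lower: U2AF4 (-0.68), the KRAB domain of NIZP1 (-0.64), STAT2 (-0.62), PYGO1 (-0.56), IKKA (-0.49) and SMRC2 (-0.48). ANM2 (0.24) and SMCA2 (0.12) lost their calls, and the 5 strong activating domains kept log2 effects between 2.24 and 3.27. TMM scaling over all domains moved them by 0.03.

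**Figure D1:**
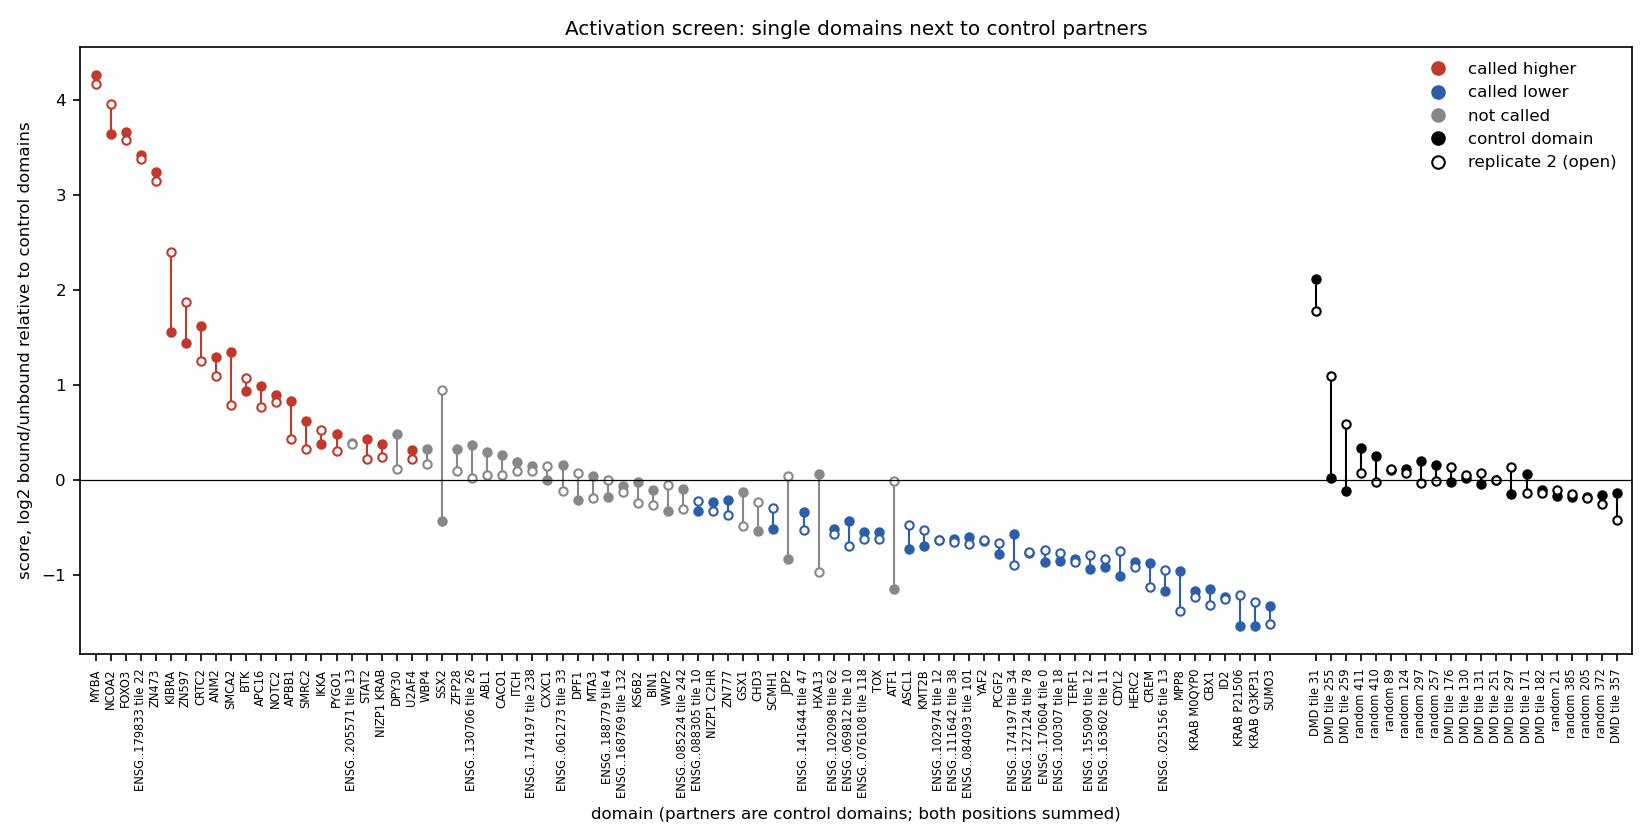
Scores (log2 bound over unbound, relative to control domains) of the 79 domains and, at the right, the 21 controls, each next to control partners; filled points are replicate 1, open points replicate 2 and the line joins them. Labels shorten ENSG00000 to "ENSG.." and give random controls by number. The 5 domains at the left lie above 3 in both replicates, and the control DMD tile 31 lies near 2.

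The controls themselves spanned -0.31 to 0.51 in log2, with an SD of 0.19, once DMD tile 31 (1.92) was set aside. SSX2 scored -0.43 and 0.95 and ATF1 -1.14 and -0.01, so the replicates of these domains lay far apart and neither was called.

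Scores of pairs differed by the class of the partner. Pairs of a strong activating domain with a control had a median score of 3.89, which is high by the choice of that group. With a second strong activating domain the median was 3.60 over 20 pairs, and with a weaker activating domain it was 4.48 over 50 pairs. With 1 of the 9 low domains the median was -1.63 over 86 pairs, of which 45 were called lower and 1 higher. The median for low domains with controls was -1.25, so these pairs lay no higher next to a strong activating domain than next to a control. Weaker activating domains had medians of 1.25 next to controls, 3.80 next to each other and -1.33 next to low domains. These medians describe groups chosen on single-domain effects and carry no test.

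To test this for each domain, reads were summed over its pairs with the 5 strong activating domains and compared with the control domains next to the same partners. limma called 50 of 79 domains lower (63.3%) and 7 higher (8.86%), or 72.2% in either direction. Some domains called lower here had been called higher next to controls. They included MYBA (-0.64) and FOXO3 (-0.67), next to the other strong activating domains, PYGO1 (-0.60) and the KRAB domain of NIZP1 (-0.59). The chromodomain of MPP8 gave the lowest value, with -5.66 and -6.08 in the replicates (log2 -5.87, SE 0.34, limma adjusted p = 4.04e-06). KRAB variant Q3KP31 (-6.12 and -5.56), KRAB variant M0QYP0 (-5.80 and -5.60), tile 13 of ENSG00000025156 (-6.01 and -5.39), KRAB variant P21506 (-5.95 and -5.43) and SUMO3 (-5.42 and -5.63) followed. On the scale where controls with controls are 0, controls next to strong activating domains had a median level of 3.90. On that scale MPP8 stood at -1.80 and -2.26, and SUMO3 at -1.56 and -1.81.

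Control domains varied widely in this setting, which bounds what the counts show. On the centred scale they ran from -3.31 (random control 89) to 0.96 with an SD of 1.15, and 10 of the 21 would pass the raw p of the called domains, 4 of them higher and 6 lower. Below all 21 controls lay 26 domains (32.9%), and ANM2 was the only domain above all of them. The limma p-values measure the spread between replicates and not this spread between control domains, whose cause was not tested.

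Next to strong activating domains, 25 of the 79 domains stood below the level of control pairs in both replicates, as did 0 of the 21 controls. All 25 were below 0 next to weaker activating domains too. They held 3 of 3 KRAB variants and 2 of 2 domains in the Polycomb list, YAF2 and PCGF2. Among them too were 2 of 2 SUMO and E3 domains, SUMO3 and HERC2, and 2 of 3 HP1 and chromodomain proteins, CBX1 and MPP8. Silencer tiles made up 12 of them, and SH3, WW, SWI/SNF, coactivator, homeodomain and transcription factor lists gave 0. Of the 25 domains, 24 were also called at -1 or lower in the repression screen (96%), in which doxycycline lasted 5 days on another reporter. Those 24 were 57.1% of the 42 domains called so there. The other 18 domains called there included the 5 strong activating domains and SMCA2 themselves. They also included SCMH1, which the Polycomb list leaves out and which had a level of 0.61 next to strong activating domains. Tile 62 of ENSG00000102098 (0.95), KMT2B (1.92) and tile 10 of ENSG00000069812 (2.59) were further ones.

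By list, the median change relative to controls with the same strong activating partners was -5.70 for the KRAB variants, -5.33 for the SUMO and E3 domains, -5.27 for HP1 and chromodomain proteins, -4.66 for Polycomb domains and -3.90 for silencer tiles, against -1.25 over all 79 domains. All 10 domains of the first 4 lists fell, and 17 of the 23 silencer tiles did, while 4 tiles rose. Over all 79 domains 63.3% were called lower, and 6 of 21 controls pass the same raw p as lower, so the count of silencer tiles lies near the share of all domains. The 5 WW domains, between -0.19 and 0.32, were all without a call, as were 3 of the 4 SH3 domains and 4 of the 5 SWI/SNF and histone methyltransferase subunits. Both homeodomains fell, with values of -2.24 and -2.60, although neither was called next to controls. These values lay within the range of the controls, whose lowest was random control 89 at -3.31.

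The domain below 0 here and not called in the repression screen was tile 238 of ENSG00000174197. Next to controls it scored 0.15 and 0.10 (log2 0.09, SE 0.13) and in the repression screen its effect was 0.15 (SE 0.13), neither of them called. Next to strong activating domains its reads were 28505 bound and 36682 unbound in replicate 1 and 17466 and 640 in replicate 2, a level of -0.10 and -0.02. Its 10 pairs with these domains, in both orders, had mean scores between -0.32 and 0.54 with a median of 0.06, and edgeR called 0 of them in either direction. This tile was singled out after its values were seen. Random control 89 came nearest to it among the controls, with levels of 0.45 and 0.61 next to strong activating domains and 0.10 and 0.12 next to controls.

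Some domains that were low alone stood above control pairs next to strong activators. CREM scored -0.87 and -1.12 next to controls but had levels of 2.00 and 0.73 next to strong activating domains. CREM + ZN473 had 4726 bound and 723 unbound reads in replicate 1 and 1309 and 13 in replicate 2 (scores 3.18 and 1.95; log2 2.57, SE 0.56, edgeR adjusted p = 0.00708) and was the 1 called higher of the 86 pairs above. The reverse, ZN473 + CREM, scored 2.18 and -0.35 and was not called (log2 0.93, SE 0.80). CREM + CRTC2 was called higher too, at 1.16 (SE 0.37, edgeR adjusted p = 0.0446). TERF1, a telomere-binding protein, fell to -0.88 (SE 0.16) next to controls and had levels of 2.05 and 2.55 next to strong activating domains.

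ANM2 was the domain with the highest level in both activating settings. Next to strong activating domains it stood at 5.10 and 5.35, 1.24 and 1.53 above the controls with the same partners (log2 1.39, SE 0.20, limma adjusted p = 0.000718). Tile 33 of ENSG00000061273 (0.75), tile 13 of ENSG00000205571 (0.66), tile 242 of ENSG00000085224 (0.50), CRTC2 (0.47), tile 132 of ENSG00000168769 (0.46) and APC16 (0.37) were the other calls, all within the range of the controls. Leaving out either replicate reduced these 7 calls to 2 or 3.

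Next to the 5 weaker activating domains limma called 33 domains higher (41.8%) and 41 lower (51.9%), or 93.7% in either direction. The controls ran from -1.03 to 2.30 there with an SD of 0.99, and 15 domains (19%) were above all of them and 37 (46.8%) below. Of the 21 controls, 7 pass the same raw p as higher and 8 as lower. ANM2 was 3.93 and 3.99 above the controls, ahead of NCOA2 (3.33 and 3.38), CRTC2 (3.53 and 3.09), ZN473 (3.38 and 3.21), FOXO3 (3.34 and 3.00) and tile 22 of ENSG00000179833 (3.29 and 3.02). All 5 WW domains were called higher, KIBRA (3.12), APBB1 (2.67) and WBP4 (2.66) above every control, and ITCH (1.82) and WWP2 (1.71) within the range of the controls. Of the 4 SH3 domains 3 were called higher, ANM2 and BTK (2.39) above every control and ABL1 (1.58) within their range. Lowest were SUMO3 (-2.95), tile 13 of ENSG00000025156 (-2.88), KRAB variant P21506 (-2.80), MPP8 (-2.68), KRAB variant Q3KP31 (-2.63) and YAF2 (-2.60). DMD tile 31 (2.30) and DMD tile 131 (2.27) were the highest controls.

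The difference between a domain's centred scores next to weaker activators and next to controls was tested directly. It was called higher for 29 domains (36.7%) and lower for 41 (51.9%), or 88.6% in either direction. The controls ran from -1.11 to 2.25 (DMD tile 131) in this difference with an SD of 0.82, and 3 domains, ANM2, IKKA and WBP4, lay above all of them and 32 below. ANM2 had the largest difference, 2.64 and 2.90 in the replicates (log2 2.77, SE 0.19, limma adjusted p = 1.17e-05). The NEMO-binding segment of IKKA, a kinase of the NF-kappaB pathway (gene CHUK, chromosome 10, 100186319 to 100229596 in RefSeq on GRCh38), followed with 2.63 and 2.65. IKKA scored 0.38 and 0.53 next to controls and had levels of 4.14 and 4.44 next to weaker activators. The WW domain of the splicing-related protein WBP4 (2.40), the RNA-recognition motif of U2AF4 (2.25), SMRC2, a SWI/SNF subunit (2.22), and CACO1 (2.08) came next, the last 3 of them not above DMD tile 131. For the strong activating partners the difference was called higher for 3 domains (3.8%) and lower for 64 (81%), or 84.8% in either direction. The controls ran from -3.42 (random control 89) to 0.76 with an SD of 1.26, 0 domains lay above all of them and 29 below. The 3 higher calls, all within the range of the controls, were tile 33 of ENSG00000061273 (0.73), tile 242 of ENSG00000085224 (0.70) and tile 132 of ENSG00000168769 (0.55). MYBA had the lowest difference (-4.86), with a level of 4.21 next to controls and 3.18 next to the other strong activating domains. The 5 strong activating domains, all among the 64 called lower, had been chosen for a high score next to controls. That score is subtracted here, so a low difference is partly built into their choice.

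**Figure D2:**
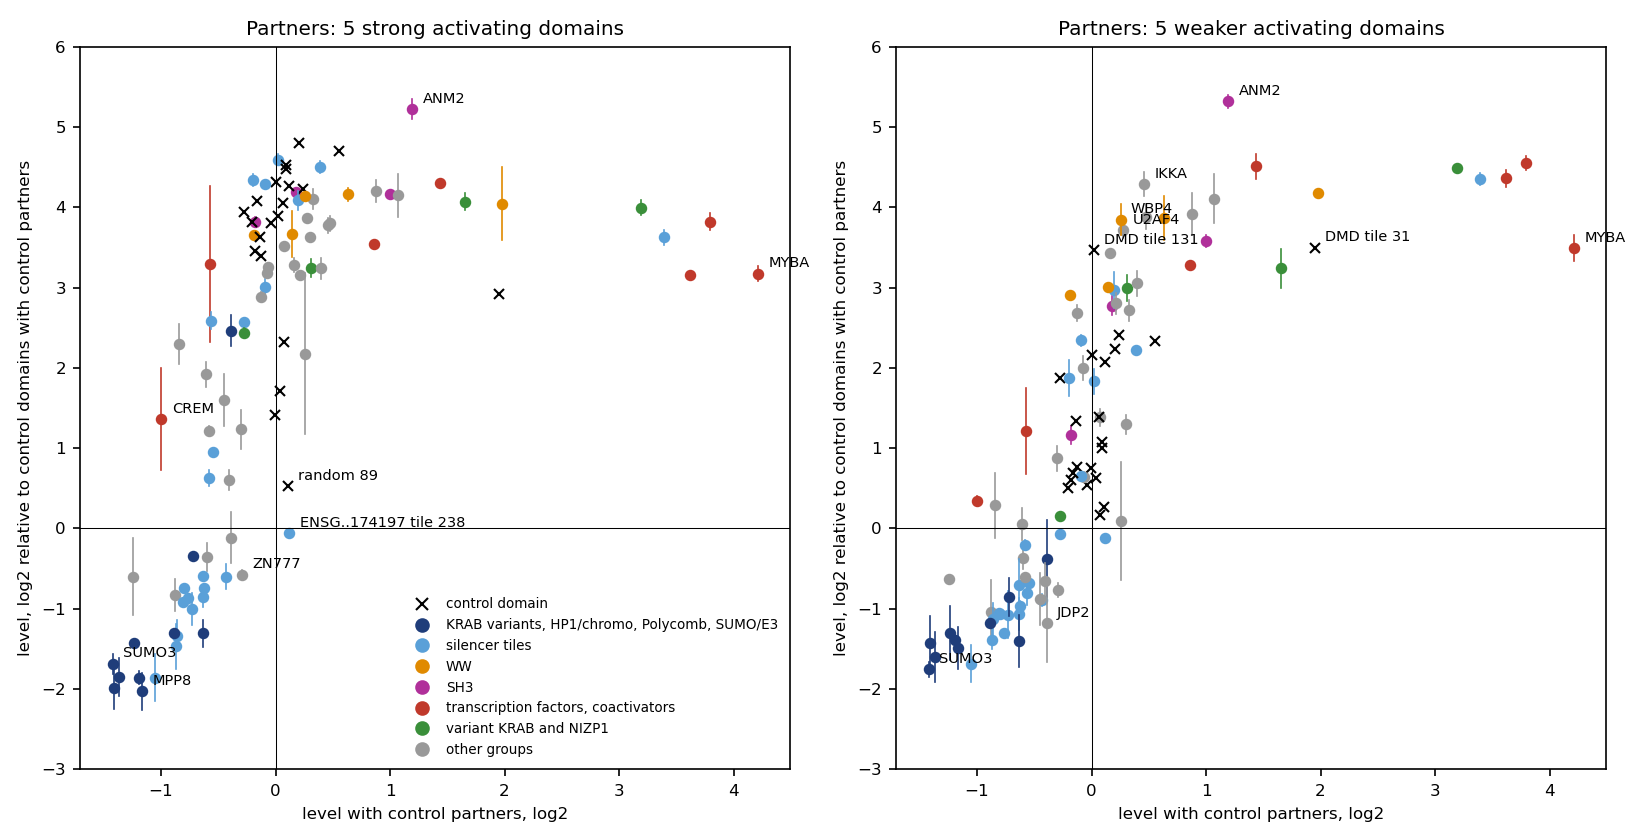
Level of each domain next to the 5 strong (left) and the 5 weaker (right) activating domains against its level next to controls, all log2 relative to control domains with control partners; points are means of 2 replicates, vertical lines join the replicates and crosses are controls. ANM2 is highest in both panels, 25 domains lie below 0 in both replicates at the left, and the controls spread from 0.53 to 4.80 there.

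Of the 9063 pairs, edgeR called 1337 higher (14.8%) and 988 lower (10.9%), and every called pair had the same sign in both replicates. Scaling to total counts moved the median of all pairs from -0.37 to -1.42 and gave 1028 higher and 4603 lower. Pairs with at least 1 of the 10 activating domains were called higher in 883 of 1779 cases (49.6%), and the others in 454 of 7284 (6.23%). The 10 domains were chosen for high scores next to controls in these libraries, and those control pairs are counted here. This contrast therefore follows from the choice and carries no test. In the pairs without them, DMD tile 31 was in 70 of the called pairs, APC16 in 55, IKKA and the Notch domain of NOTC2 in 49 each, and BTK in 47. Pairs of 2 different controls were called higher in 23 of 396 cases and lower in 5. All 23 higher calls held DMD tile 31, which had 40 such pairs.

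ANM2 appeared in the highest pairs. ANM2 + KIBRA had 37063 bound and 1019 unbound reads in replicate 1 and 16392 and 5 in replicate 2, scores of 5.66 and 6.97 and the highest mean score of all pairs, 6.31. Its reverse KIBRA + ANM2 scored 5.64 and 4.80. ANM2 + CRTC2 scored 5.81 and 5.70 and CRTC2 + ANM2 5.69 and 4.67, where single-domain effects were 1.16 and 1.40. Pairs of a strong activating domain with a control were called higher in 185 of 208 cases (88.9%), with a median of 3.89. All 10 pairs of ANM2 with strong activating domains were called higher, with a median of 5.38. The median of its 42 pairs with controls was 0.80. Against that, MYBA + FOXO3, which joins a pair of strong activating domains, scored 1.95 and 2.07, and FOXO3 + MYBA scored 2.94 and 2.86.

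The 6 called pairs of non-control domains with the highest log2 and at least 200 reads in each replicate each held a strong activating domain or ANM2. FOXO3 + ZN597 was first with 6.98 (SE 1.82), but its scores were 6.94 and 1.43, with 0 unbound reads in replicate 2, and it was not called without either replicate. ENSG00000205571 tile 13 + MYBA (scores 6.62 and 4.70), NOTC2 + ANM2 (5.55 and 6.65), ENSG00000205571 tile 13 + FOXO3 (5.95 and 6.03), FOXO3 + ANM2 (5.57 and 6.01) and ENSG00000205571 tile 13 + ENSG00000179833 tile 22 (5.97 and 5.94) followed. Each of these 5 had 1 to 4 unbound reads in replicate 2, below the floor. Tile 13 itself scored 0.39 and 0.38 next to controls and was not called.

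The lowest 6 by the same rule held silencing domains, apart from DPF1 + GSX1. NIZP1 C2HR + MPP8 scored -2.84 and -2.81 (log2 -2.87, SE 0.57, edgeR adjusted p = 0.00407), and ANM2 + CBX1 scored -2.36 and -3.15 (-2.80, SE 0.43). KRAB variant Q3KP31 + ENSG00000174197 tile 34 was at -2.73 (SE 0.71), GSX1 + MPP8 at -2.87 (SE 0.94) and ENSG00000155090 tile 12 + WBP4 at -2.55 (SE 0.47). DPF1 + GSX1, with neither domain in a silencing list, was at -3.70 (SE 1.22) from scores of -5.75 and -1.68 and only 4 bound reads in replicate 1. Of these 6, ANM2 + CBX1 was the only pair called without either replicate in turn.

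**Figure D3:**
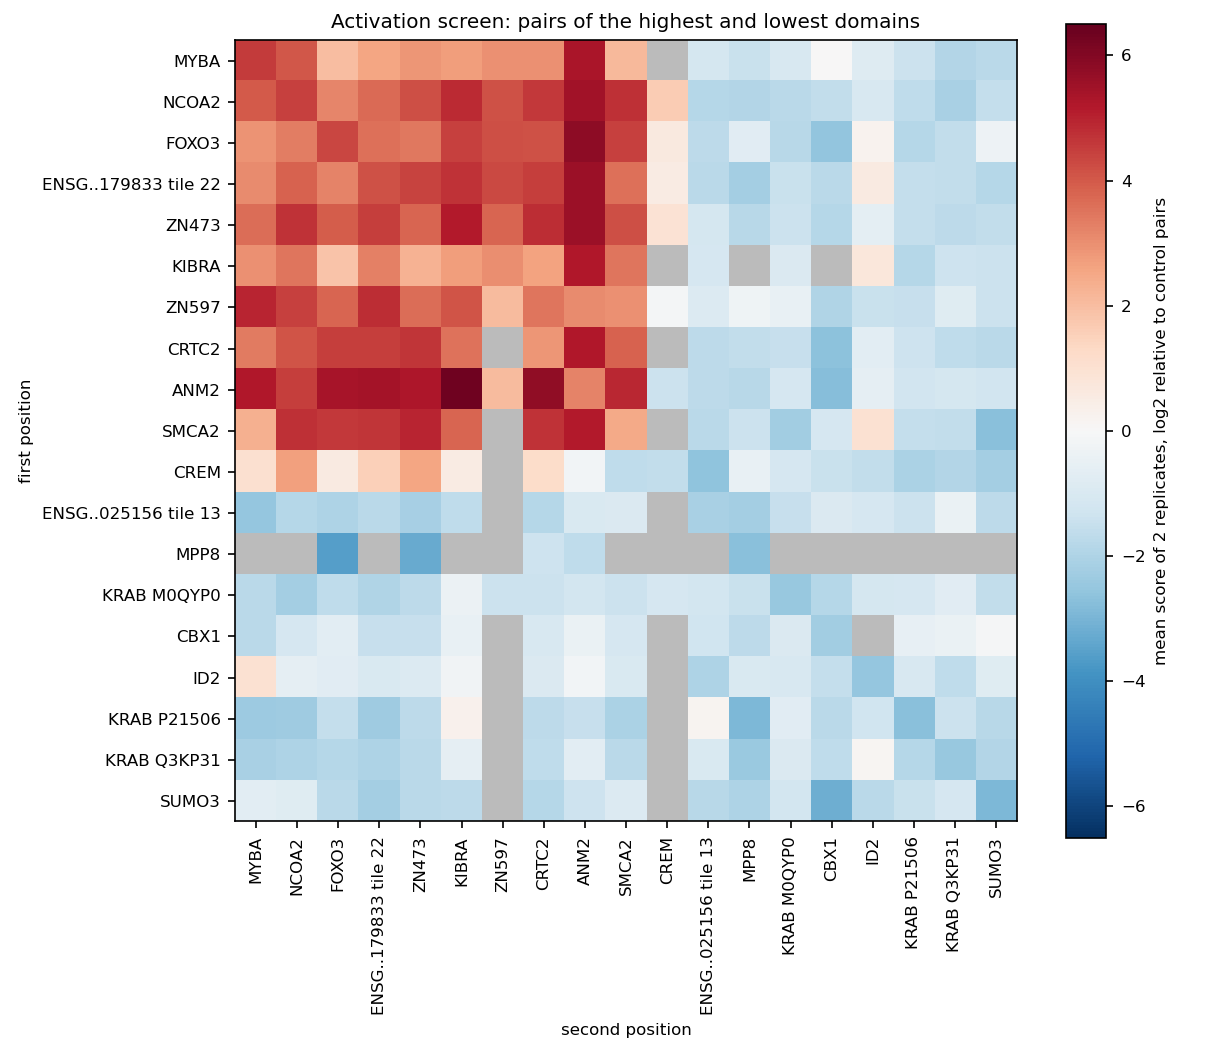
Mean score of 2 replicates (log2 relative to control pairs, colour) for pairs of the 10 activating and 9 low domains, ordered by single-domain effect, with the first position in rows and the second in columns; grey marks pairs below the read filter. Activating pairs are red, the ANM2 row and column darkest, and pairs with a low domain are mostly blue apart from CREM.

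A higher bound share was also measured for domains that did little alone. Among 5490 pairs in which neither domain was called higher next to controls and DMD tile 31 was absent, 61 were called higher (1.11%) and 642 lower (11.7%). Tile 26 of ENSG00000130706, which was not called alone, was in 6 of the 9 called pairs at 3 or above. ENSG00000130706 tile 26 + ABL1 had 44508 bound and 2336 unbound reads in replicate 1 and 19471 and 38 in replicate 2, with scores of 4.72 and 4.29 (log2 4.48, SE 0.41, edgeR adjusted p = 1.9e-05). The reverse, ABL1 + ENSG00000130706 tile 26, scored 4.41 and 4.55. ENSG00000130706 tile 26 + WBP4 scored 3.86 and 4.08, and WWP2 + ENSG00000130706 tile 26, with the WW domain of a ubiquitin ligase, 4.18 and 3.83. CACO1 + ITCH, the latter another ubiquitin ligase with a WW domain, scored 3.79 and 3.15. These pairs were looked at after the values were seen.

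A domain paired with itself was tested in 99 cases, of which 13 were called higher (13.1%) and 11 lower (11.1%), near the 14.8% and 10.9% of all pairs. NCOA2 + NCOA2 scored 3.76 and 5.11, against 3.64 and 3.95 for NCOA2 next to controls. In 4 of the 5 weaker activating domains the self pair scored above the single domain in both replicates, and ZN597 + ZN597 did not, with 1.09 and 3.00 against 1.44 and 1.87. BTK + BTK scored 2.73 and 3.66 against 0.94 and 1.07, and ANM2 + ANM2 scored 2.35 and 4.11 against 1.29 and 1.09. At the low end SUMO3 + SUMO3 scored -2.97 and -2.85 against -1.33 and -1.51. The difference between a self pair and a single effect was not tested.

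Position in the fusion was called for 1 of 79 domains by limma (1.27%), and for 18 at an unadjusted p of 0.05. The C-terminal domain of STAT2, a transducer of interferon signalling (chromosome 12, 56341597 to 56360107 in RefSeq on GRCh38, the whole gene), scored 0.02 and -0.21 in the first position and 1.10 and 0.95 in the second. Its difference, first minus second, was -1.12 (SE 0.13, limma adjusted p = 0.0218). The call was lost without either replicate, with DMD tile 31 outside the controls (-0.95) and with the activation replicates alone. It was also lost with medians of pair scores in place of summed reads (-0.65). With those medians limma called position for another domain, at a smallest adjusted p of 0.00776. By contrast, edgeR on the counts called STAT2 (-1.09, SE 0.12). Over 72 partners that are not controls and were tested in both orders, STAT2 scored higher in the second position by a median of 1.14 in each replicate, with 55 partners above 0 in both replicates and 2 below. SMRC2 went the other way, with 0.95 and 0.69 in the first position and 0.17 and -0.12 in the second, and was called by edgeR alone (0.82, SE 0.14).

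**Figure D4:**
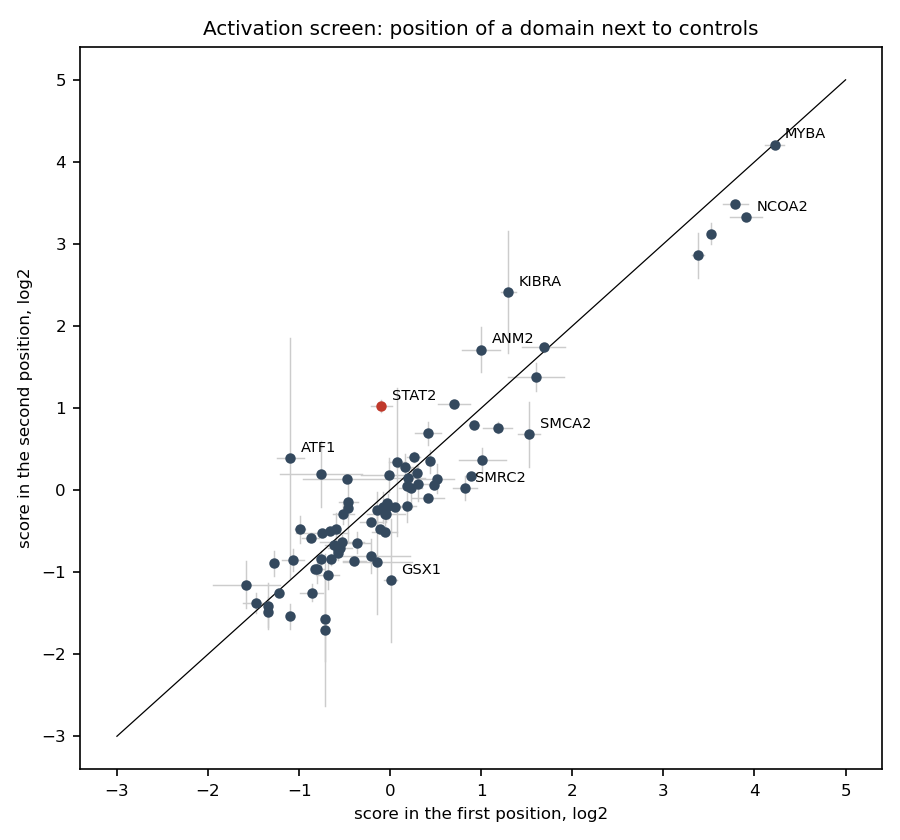
Score of each of the 79 domains next to controls in the second position against the first (log2 relative to control domains in that position); points are means of 2 replicates, grey lines join the replicates and the diagonal marks equal scores. STAT2 (red) lies above the diagonal with short lines, and most domains lie near it.

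Order was tested for 4121 unordered pairs in which both orders passed the read filter. limma called 0 (0%), with 373 at an unadjusted p of 0.05 and a smallest adjusted p of 0.42. edgeR on the counts of both orders called 7 one way and 6 the other. SMRC2 + STAT2 scored 5.49 and 5.23 and STAT2 + SMRC2 2.16 and 1.58 (log2 difference 3.50, SE 0.44, edgeR adjusted p = 0.00632). IKKA + STAT2 scored 4.91 and 5.25 against 2.80 and 1.96 for STAT2 + IKKA. ITCH + STAT2 scored 3.23 and 3.83 against 0.90 and 0.60 in the reverse order. In these 3 pairs the higher order had STAT2 second. The largest difference among the edgeR calls held a control, DMD tile 357 + KIBRA (4.26, SE 0.65). DMD tile 357 with APC16, CACO1 and DMD tile 31 was called too, each time higher with DMD tile 357 first. These pairs were chosen after their values were seen.

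Among the 8787 pairs tested in both screens, 839 of the 1335 called higher in the activation screen were called lower in the repression screen (62.85%), where 57.8% of these pairs were called lower. Of the 987 called lower in the activation screen 950 were called lower there (96.25%). The screens differ in reporter and in days of doxycycline, which cannot be told apart here.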

How the data were processed

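Per the labels, genomic DNA of the domain pairs was sequenced from bound and unbound cells. The deposited files hold the authors' raw counts of reads per ordered domain pair; Bowtie2 and hg38 come from the submitters' processing notes, with no Bowtie2 version in the sources used here.

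Pairs were tested with edgeR 4.0.16 (quasi-likelihood test, R 4.3.3) on all 12 libraries. Each replicate of each screen was a block, and bound was compared with unbound within a screen, with 3 residual degrees of freedom. TMM factors came from the 417 tested control pairs. For single domains, reads were summed over pairs with controls. Partner, position and order tests used limma 3.58.1 on replicate scores. Benjamini-Hochberg adjusted p-values at or below 0.05 were called. The tests were tried on simulated counts with a dispersion of 0.05, below the common dispersion of 0.16 estimated for the data. Error rates at the spread of the data were therefore not checked. The replicates were infected separately, and p-values measure the spread between these 2 cultures only. The block follows from the design, since both fractions of a replicate come from 1 infected culture. No domain sequence was used.

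Named were single domains called at 1 or more in size with 1 sign in both replicates and positions, the 6 highest and 6 lowest called pairs of different non-control domains with at least 200 reads in each replicate, up to 6 called domains each way next to activating partners, and up to 4 each way for position and order. The members, lists and rules were chosen with earlier results of these data known. Alternatives changed the replicates, controls, scaling, filter, test (DESeq2 1.42.0), block, partners and libraries fitted. Gene positions came from RefSeq for 52 of the 100 domains, matched by name, and give the whole gene, since the exon of a domain was not known. By name, 11 controls are DMD tiles, and the labels state 10.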

Additional observations from a re-analysis of the deposited data

Results flagged for a closer look

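For 18 of the 19 single domains named above, the effect in the activation screen differed from that in the repression screen in a test of the difference itself (edgeR, adjusted p from 3.31e-08 to 0.00726); over all 79 domains 58 differed. The screens use different reporters and days of doxycycline, which cannot be told apart. All 18 differences, activation minus repression, were positive. Among activating domains they were 5.49 for MYBA, 5.02 for NCOA2, 5.48 for FOXO3, 4.71 for ENSG00000179833 tile 22, 4.29 for ZN473, 2.64 for KIBRA, 1.06 for ZN597, 1.70 for CRTC2, 1.10 for ANM2 and 2.33 for SMCA2. Among low domains they were 1.75 for ENSG00000025156 tile 13, 1.65 for MPP8, 3.46 for KRAB variant M0QYP0, 2.43 for CBX1, 1.03 for ID2, 3.30 for KRAB variant P21506, 2.96 for KRAB variant Q3KP31 and 2.31 for SUMO3. CREM had a difference of 0.41, which was not called. The effects had opposite signs in 8 of the 18.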

How the results depend on the processing

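Among the named domains and pairs, and the counts of calls, 0 turned direction in the alternatives run; among single domains outside the naming rule, 9 called higher turned below 0 with total counts and 6 of them were called lower. With total counts in place of control scaling, 4603 pairs were called lower, and single domains gave 8 higher and 64 lower; the 988 and 34 lower calls were all among them. limma on scores called 518 pairs lower. Without replicate 1 or replicate 2, pairs called higher ranged from 852 to 963, pairs lower from 72 to 99, single domains higher from 14 to 17 and lower from 19 to 26, position calls were 0 and 0, and domains higher next to strong activating partners numbered 2 to 3. In these, the fit pools the spread over all screens and assumes that the lone replicate varies like the others. The position call was lost (0 lower) with DMD tile 31 outside the controls and with the activation replicates alone, and the edgeR contrast added 1 higher. Order calls, 0 by limma, were 7 and 6 by the edgeR contrast. Medians of pair scores gave 3 domains higher next to strong activating domains and 5 for the difference. The cause was not tested for any of these, beyond the smaller number of libraries where a replicate was left out.

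The replicate number pairs both fractions of 1 culture. With no replicate block, 1360 pairs were higher and 1031 lower, of which 1308 and 870 were among the calls with the block, and single domains gave 20 and 35. DESeq2 called 1492 pairs higher and 1390 lower. Of 730 combinations of a named domain or pair with an alternative, 688 kept direction and call and 42 lost the call. Depth limits pairs most in the unbound library of replicate 2, where 8.42% of tested pairs had fewer than 5 reads.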
